A study of Danio rerio with 6 samples.

Results

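The SLC2 family encodes transporters, most of them facilitative, that move glucose and other sugars across membranes. Measured here were 9 zebrafish members, slc2a11b, slc2a15a, slc2a15b, slc2a1a, slc2a1b, slc2a2, slc2a3a, slc2a3b and slc2a12, out of 19364 genes with a value in at least 1 library. They were chosen by symbol in the authors' deposited table and joined to the tables per library by gene ID. RNA came from whole embryos at 3 days post fertilisation. The groups were csf1ra-/- mutants, made with CRISPR/Cas9 per the series title, and wild-type fish, with 3 libraries each. The collection is stated as 30 embryos, per genotype or per sample, and 1 μg of total RNA entered each library. The labels name neither the mutant allele nor separate clutches. The libraries of a genotype may therefore be technical repeats, and each p-value covers their spread alone.

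Levels are in FPKM (fragments scaled to transcript length and library size), so that genes can be compared. The deposited tables give FPKM for transcript-structure events. A gene's level was the larger of its summed first-exon events and its summed last-exon events in that library. Fold changes and SEs are on the log2(FPKM + 1) scale, mutant minus wild type, which understates the change of low genes. Tests are limma's, called at an adjusted p under 0.05 (Benjamini-Hochberg, all 15475 tested genes).

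Most SLC2 transporters let sugar move down its own gradient, while the mammalian SLC2A13 is driven by protons, and the members differ in affinity, substrate and tissue. SLC2A1 is the basal transporter of many cells and of the blood-brain barrier, SLC2A3 is the high-affinity transporter of neurons, and SLC2A2 serves liver, gut and pancreatic islet in mammals. The fish genes slc2a11b and slc2a15b are known from medaka, where mutants have defects of xanthophores and leucophores, the yellow and white pigment cells of the neural crest. csf1ra encodes a receptor tyrosine kinase that zebrafish xanthophores and macrophages need. The design thus asks whether and how far transcripts of sugar transporters differ in embryos without this receptor.

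The targeted gene matched the labels. csf1ra was not listed in mutant replicates 1 and 2 and stood at 0.563 FPKM in mutant replicate 3, against 4.54, 4.07 and 3.72 FPKM in the wild-type libraries. Per library, 17291 to 17653 genes were listed. Depth is unknown, as the sources used here give no read totals. Genotype separated the libraries on the first principal component (40.6% of the variance). Mutant replicate 3 stood apart on the second (18.3%), at -30.48 against 11.22 and 14.44 in mutant replicates 1 and 2 and -2.17 to 4.39 in wild type. In all, 374 of 15475 genes (2.42%) passed the test, 188 higher and 186 lower in the mutant.

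Of the 9 members, 8 exceeded 1 FPKM in every library and were tested. slc2a11b, slc2a15a and slc2a15b fell in the mutant, slc2a3a rose, and 4 did not pass. The 4 of 8 called stand beside 2.42% of all tested genes. The 3 of 8 lower stand beside 1.20% of all tested genes called lower, and the 1 of 8 higher beside 1.21% called higher. The members were chosen with earlier results of these data known, so these shares are a description. Of the 3 other SLC2 genes tested, 0 were called. The members' median log2 change was -0.21, against 0.016 over all tested genes. Without mutant replicate 3 the same 3 members were called lower. The call of slc2a3a was lost whichever library was left out, and that of slc2a15b whichever wild-type library was left out.

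**Figure D1:**
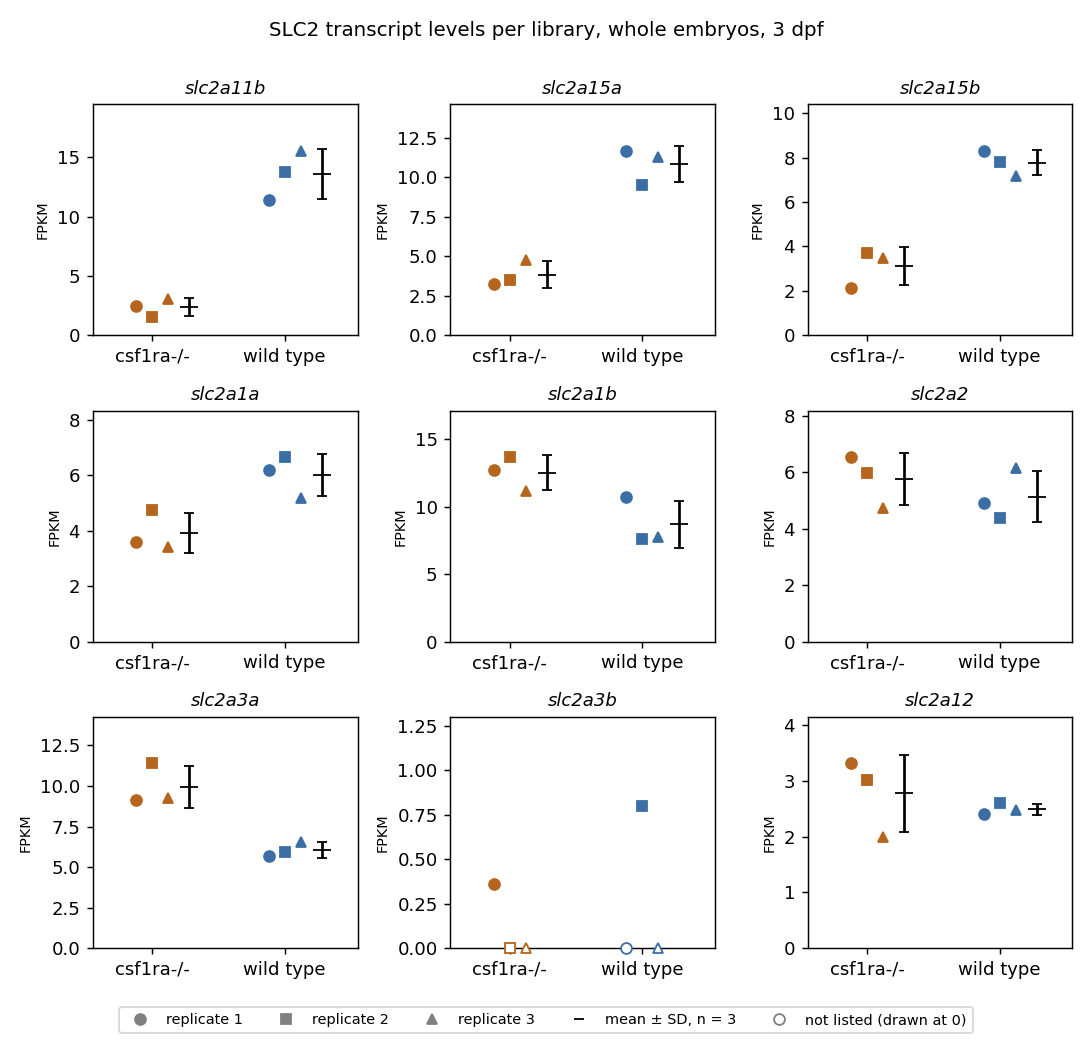
FPKM (y axes, each from 0) of the 9 SLC2 genes in the 3 csf1ra-/- and 3 wild-type libraries, 1 panel a gene; symbols mark replicates, open symbols a library that does not list the gene, and bars the mean ± SD. All mutant values lie below all wild-type values for slc2a11b, slc2a15a, slc2a15b and slc2a1a, and above them for slc2a1b and slc2a3a.

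slc2a11b (ENSDARG00000063288; GRCz10 chromosome 5, 9509966 to 9541545, plus strand), the member tied to leucophore and xanthophore pigment in medaka, changed most. It stood at 2.49, 1.57 and 3.10 FPKM in the mutant libraries, against 11.4, 13.8 and 15.6 FPKM in wild type. The genotypes did not overlap, and the lowest wild-type library held more than the highest mutant library. The mutant mean of 2.39 ± 0.77 FPKM was 0.176 of the wild-type mean of 13.6 ± 2.1 FPKM (SD, n = 3 each). The log2 change was -2.12 (SE 0.19, limma adjusted p = 0.00159), and 32 of all tested genes, slc2a11b included, had a change at least that low. Leaving out each library in turn kept it between -2.27 and -1.94, with limma adjusted p of 0.00284 to 0.0139.

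slc2a15a (ENSDARG00000029894; chromosome 13, 28286847 to 28311636, plus strand) belongs to the SLC2A15 branch. It stood at 3.25, 3.49 and 4.79 FPKM in the mutant libraries, against 11.7, 9.55 and 11.3 FPKM in wild type. Mutant replicate 3 was the highest of the mutant libraries and still lay below every wild-type library. The means were 3.84 ± 0.83 FPKM in the mutant and 10.8 ± 1.1 FPKM in wild type (SD, n = 3 each), a ratio of 0.354. The log2 change was -1.30 (SE 0.15, limma adjusted p = 0.00514). Without single libraries it was -1.44 to -1.21, with limma adjusted p of 0.00364 to 0.0358.

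slc2a15b (ENSDARG00000053269; chromosome 1, 30840657 to 30865849, plus strand) is the gene whose loss removes leucophores in medaka. It stood at 2.14, 3.73 and 3.48 FPKM in the mutant libraries, against 8.32, 7.81 and 7.18 FPKM in wild type. Again the genotypes did not overlap, with mutant replicate 1 the lowest. The log2 change was -1.11 (SE 0.17, limma adjusted p = 0.0200), with means of 3.12 ± 0.85 FPKM in the mutant and 7.77 ± 0.57 FPKM in wild type (SD, n = 3 each). Leaving out wild-type replicate 1, 2 or 3 ended the call (limma adjusted p = 0.0837, 0.0855 and 0.0617), where the log2 change was -1.07 to -1.16. It was also lost with last-exon events alone, since mutant replicate 3 lists no last-exon event for this gene (log2 change -1.83, limma adjusted p = 0.179).

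slc2a11b has 3 first-exon events, and both main ones were lower in the mutant. The most used, at 9510346 to 9510526, held 1.69, 0.809 and 2.18 FPKM in the mutant libraries, against 8.16, 10.6 and 11.4 FPKM in wild type. The start just upstream, at 9509966 to 9510070, held 0.710, 0.730 and 0.729 FPKM in the mutant, against 3.10, 3.00 and 3.63 FPKM in wild type. Neither start's values overlap between the genotypes. The third, 3′ of these at 9524964 to 9525290, was low throughout, at 0.0924, 0.0337 and 0.188 FPKM in the mutant and 0.150, 0.133 and 0.489 FPKM in wild type.

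The most used start made up 67.8%, 51.5% and 70.4% of the first-exon FPKM of slc2a11b in the mutant libraries, against 71.5%, 77.3% and 73.5% in wild type. The shares do not overlap, with mutant replicate 2 far below the other libraries and mutant replicate 3 just below wild-type replicate 1. An exact two-sided permutation test of this share, added after its values were seen, gave p = 0.1, the smallest that 3 against 3 allows. For the upstream and the third start the same exact test gave p = 0.2 each.

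**Figure D2:**
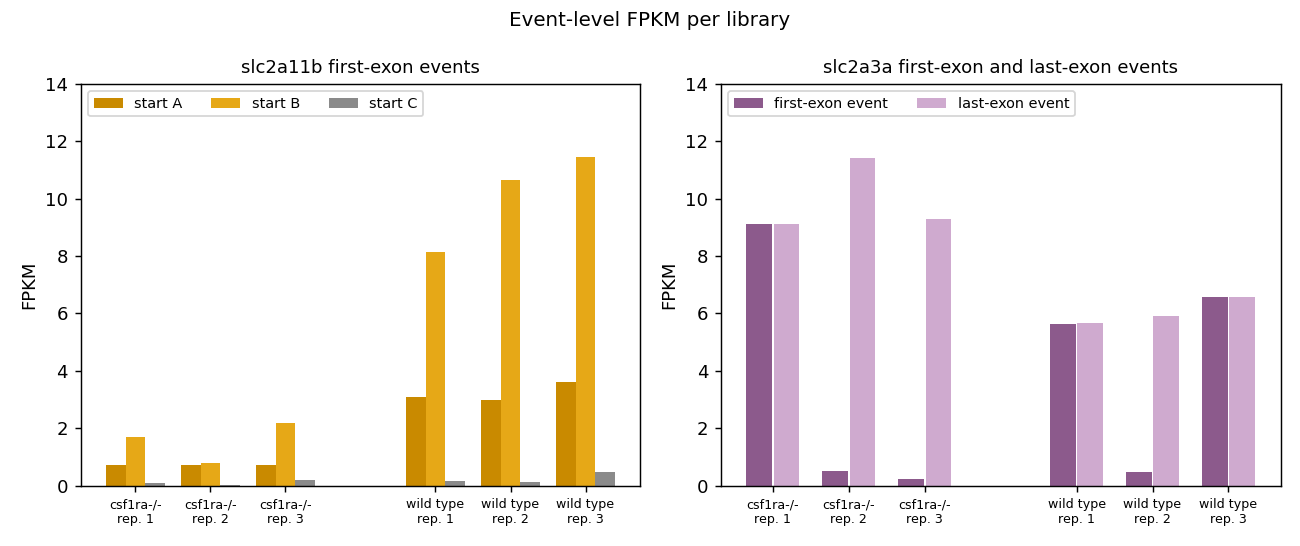
FPKM (y axes) of first-exon events of slc2a11b (left) and of the first-exon and last-exon event of slc2a3a (right) in each csf1ra-/- and wild-type library (x axes). Start A lies upstream, start B is the most used and start C lies 3′ of both; in the mutant libraries starts A and B of slc2a11b stay below 2.2 FPKM, and the first-exon event of slc2a3a is under 1 FPKM in 3 of the 6 libraries while its last-exon event is not.

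Among the members known as general and neuronal glucose transporters, slc2a3a (ENSDARG00000013295; chromosome 19, 9766283 to 9793605, minus strand) rose. It stood at 9.13, 11.4 and 9.27 FPKM in the mutant libraries, against 5.65, 5.92 and 6.57 FPKM in wild type. The genotypes did not overlap, and mutant replicate 2 was the highest. The log2 change was 0.63 (SE 0.11, limma adjusted p = 0.0388), a mean of 9.93 ± 1.3 FPKM in the mutant and 6.05 ± 0.47 FPKM in wild type (SD, n = 3 each). Without any 1 of the 6 libraries the call was lost (limma adjusted p 0.0504 to 0.131), while the log2 change stayed between 0.54 and 0.68. The value rests on the last-exon event. The first-exon event held 9.11, 0.519 and 0.233 FPKM in the mutant and 5.65, 0.463 and 6.57 FPKM in wild type, and on it alone the log2 change was -0.65 (limma adjusted p = 0.788).

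slc2a1a (ENSDARG00000001437; chromosome 23, 22273916 to 22286084, plus strand) and slc2a1b (ENSDARG00000007412; chromosome 6, 48069936 to 48095583, minus strand) are the duplicated counterparts of SLC2A1. slc2a1a stood at 3.61, 4.76 and 3.42 FPKM in the mutant libraries, against 6.19, 6.66 and 5.16 FPKM in wild type. slc2a1b stood at 12.8, 13.7 and 11.2 FPKM in the mutant libraries, against 10.7, 7.62 and 7.76 FPKM in wild type. The genotypes did not overlap for either gene, with slc2a1a lower and slc2a1b higher in every mutant library. Neither passed the test. The log2 change of slc2a1a was -0.51 (SE 0.15, 95% interval -0.85 to -0.17, limma adjusted p = 0.141). That of slc2a1b was 0.49 (SE 0.14, 95% interval 0.16 to 0.82, limma adjusted p = 0.146).

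The ratio of slc2a1b to slc2a1a FPKM was 3.54, 2.88 and 3.26 in the mutant libraries, against 1.73, 1.14 and 1.5 in wild type. Every mutant ratio thus lay above every wild-type ratio. The changes of the duplicates differed by -1.0 on the log2 scale, slc2a1a minus slc2a1b (SE 0.17, exact two-sided permutation p = 0.1, adjusted p = 0.167 over 5 pairs of members). The slc2a1b level includes plus-strand events carrying its gene ID, at 48066103 to 48069939 next to its 3′ end, with 1.73, 2.51 and 0.694 FPKM in the mutant and 0.706 FPKM in wild-type replicate 1 alone. On its own strand slc2a1b stood at 11.03, 11.2 and 10.5 FPKM in the mutant, against 10.03, 7.62 and 7.76 FPKM in wild type, a log2 change of 0.34 (limma adjusted p = 0.215).

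slc2a2 (ENSDARG00000056196; chromosome 2, 26161209 to 26179044 by its first-exon events, plus strand), the liver and islet transporter, stood at 6.54, 5.97 and 4.75 FPKM in the mutant libraries, against 4.90, 4.36 and 6.13 FPKM in wild type. Mutant replicate 3 and wild-type replicate 3 each stood on the other genotype's side. The log2 change was 0.14 (SE 0.15, 95% interval -0.22 to 0.50, limma adjusted p = 0.706). It has first-exon events only, and a start at 26161653 to 26161725 was listed in mutant replicate 1 alone, at 0.951 FPKM. slc2a12 (ENSDARG00000036865; chromosome 23, 31681722 to 31707085, minus strand), related to a transporter of mammalian muscle and fat, stood at 3.31, 3.01 and 2.0 FPKM in the mutant and 2.40, 2.60 and 2.48 FPKM in wild type. Its mutant libraries spanned the wild-type range (log2 change 0.09, SE 0.17, 95% interval -0.29 to 0.48, limma adjusted p = 0.829). Without mutant replicate 1 its log2 change was -0.01. slc2a3b (ENSDARG00000037861; chromosome 16, first-exon event at 12605111 to 12605730, minus strand), the duplicate of slc2a3a, was listed at 0.363 FPKM in mutant replicate 1 and 0.801 FPKM in wild-type replicate 2 and in no other library, and was not tested.

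**Figure D3:**
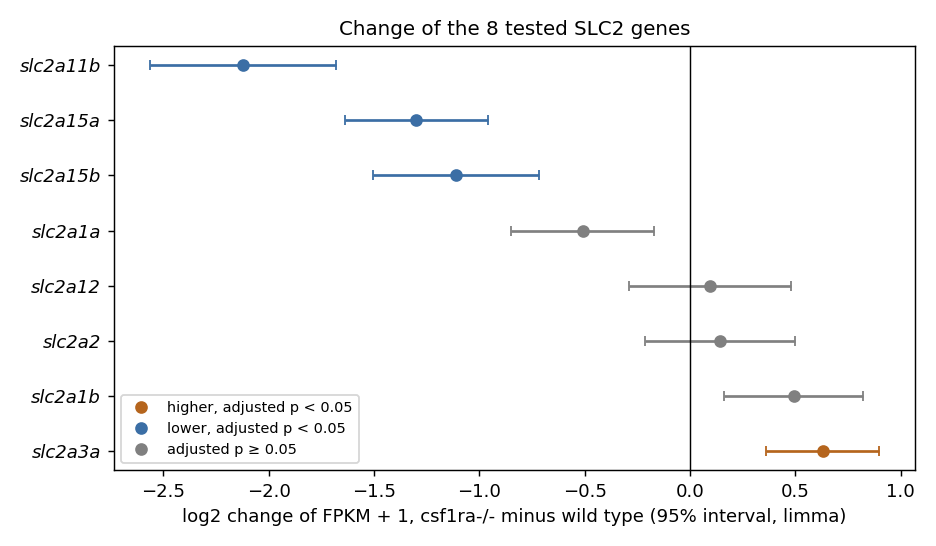
Log2 change of FPKM + 1 (x axis, csf1ra-/- minus wild type) with its 95% interval from limma for the 8 tested SLC2 genes (y axis); colour marks the call at an adjusted p under 0.05. The 3 genes called lower lie between -2.12 and -1.11, slc2a3a is called higher at 0.63, and the intervals of slc2a2 and slc2a12 span 0.

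Read over the tested members, 4 were lower and 2 higher in the mutant with no overlap between genotypes, beside 10.2% and 12.1% of all tested genes in these directions. The order of the levels differed between the genotypes. In the mutant it ran slc2a1b (12.5 FPKM), slc2a3a, slc2a2, slc2a1a, slc2a15a, slc2a15b, slc2a12, slc2a11b (2.39 FPKM) and slc2a3b. In wild type it ran slc2a11b (13.6 FPKM), slc2a15a, slc2a1b, slc2a15b, slc2a3a, slc2a1a, slc2a2, slc2a12 (2.49 FPKM) and slc2a3b. In the mutant the ranges of neighbours in this order overlapped except between slc2a3a and slc2a2 and between slc2a11b and slc2a3b. In wild type they overlapped except between slc2a15b and slc2a3a, slc2a2 and slc2a12, and slc2a12 and slc2a3b. slc2a11b thus held the highest mean of the 9 in wild type and the lowest but slc2a3b in the mutant.

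The summed level of the 9 genes was 43.6, 47.6 and 42.0 FPKM in the mutant libraries, against 61.3, 59.1 and 62.2 FPKM in wild type. slc2a11b, slc2a15a and slc2a15b together gave 7.88, 8.79 and 11.4 FPKM in the mutant, against 31.4, 31.1 and 34 FPKM in wild type. The other 6 members gave 35.7, 38.8 and 30.6 FPKM in the mutant, against 29.9, 28.0 and 28.1 FPKM in wild type. These sums did not overlap between the genotypes. They are a description, since the trio is the 3 genes called lower above. The separation of the other 6 rests on the last-exon event of slc2a3a: on first-exon events alone their sums were 35.7, 28.0 and 21.6 FPKM in the mutant and 29.9, 22.5 and 28.1 FPKM in wild type, which overlap. The trio made up 18.1%, 18.5% and 27.1% of the sum in the mutant, against 51.3%, 52.7% and 54.8% in wild type. slc2a1b made up 28.2% ± 1.4 of it in the mutant and 14.3% ± 2.8 in wild type, and slc2a3a 22.3% ± 1.5 and 9.94% ± 0.68 (SD, n = 3 each). These shares are tied to each other, since the lower trio makes the whole sum smaller in the mutant. The mean shares of slc2a2 (12.95% against 8.4%) and slc2a12 (6.2% against 4.1%), which were not called, were also higher in the mutant. That of slc2a1a was lower (8.8% against 9.9%). In whole embryos, fewer cells of a type and less RNA per cell cannot be told apart.

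**Figure D4:**
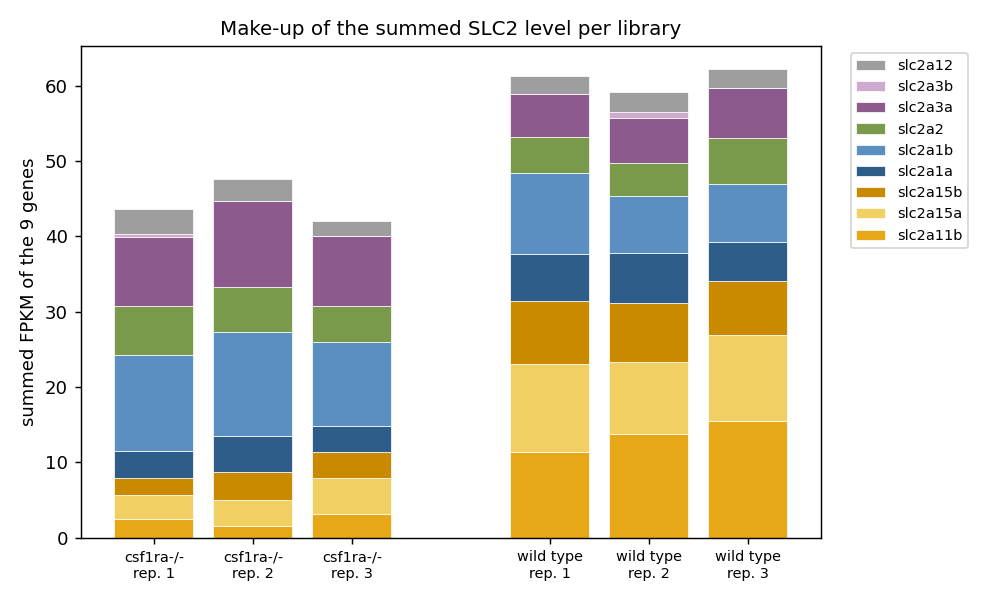
Summed FPKM of the 9 SLC2 genes (y axis) in each csf1ra-/- and wild-type library (x axis), stacked by gene. slc2a11b, slc2a15a and slc2a15b (yellow and brown, bottom) give 7.88 to 11.4 FPKM in the mutant libraries and 31.1 to 34 FPKM in wild type.

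Among the 3 members that fell, slc2a11b differed most from its relatives. Its change was lower than that of slc2a15a by 0.82 on the log2 scale (-0.82, SE 0.22) and lower than that of slc2a15b by 1.01 (-1.01, SE 0.35). In each comparison the per-library differences did not overlap between genotypes, with an exact two-sided permutation p = 0.1 and an adjusted p = 0.167 over the 5 pairs. The FPKM ratio of slc2a11b to slc2a15a was 0.767, 0.450 and 0.646 in the mutant and 0.975, 1.44 and 1.38 in wild type. The changes of slc2a15a and slc2a15b differed by -0.19 (SE 0.19, exact permutation p = 0.4), with overlapping libraries, and their FPKM ratio was 1.28 ± 0.30 in the mutant and 1.40 ± 0.18 in wild type (SD, n = 3 each). For slc2a3a minus slc2a3b the difference was 0.76 (SE 0.37, exact permutation p = 0.2), and it rests on the few listings of slc2a3b.

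The genes with the most similar patterns were sought among 15298 genes with a mean of at least 1 FPKM. The measure was the root mean square difference of mean-centred log2(FPKM + 1) over the 6 libraries, a scale that understates the change of low genes. All compared genes share these libraries, and a change of like size brings genes near by itself. Nearest to slc2a11b were cax1 (0.202), si:dkey-48g21.7 (0.214), ccl34b.1 (0.220), csf1ra itself (0.236) and bscl2l (0.248). ccl34b.1 is a chemokine gene, which stood at 1.73 ± 0.04 FPKM in the mutant and 11.6 ± 2.3 FPKM in wild type (SD, n = 3 each). Nearest to slc2a15a were itgae.1 (0.0865), the tubulin gene tuba8l4 (0.132), the aldose reductase gene akr1b1 (0.137), the glypican gene gpc2 (0.163) and the myosin light chain gene myl9b (0.167). Nearest to slc2a15b were si:dkeyp-51b9.3 (0.0994), tat (0.110), tuba8l4 (0.132), kazald2 (0.139) and mhc1lia (0.153). tuba8l4 was near both slc2a15 genes and stood at 79.4 ± 10.4 FPKM in the mutant and 168.6 ± 11.6 FPKM in wild type (SD, n = 3 each). slc2a15a and slc2a15b themselves lay 0.209 apart, and slc2a11b lay 0.468 from slc2a15a and 0.617 from slc2a15b. Nearest to slc2a3a were klhl41a (0.0667), si:dkeyp-73d8.13 (0.0710), si:dkey-205h13.2 (0.0739), scap (0.0740) and arhgap6 (0.0758).

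Of the family's other 8 genes in the deposited table, 5 were listed in at least 1 library and 3 were tested. Of these limma called 0, beside 2.42% of all tested genes (0 also at an unadjusted p under 0.05). slc2a13b, related to the proton-coupled myo-inositol transporter, stood at 1.21, 1.45 and 1.76 FPKM in the mutant and 1.32, 0.825 and 0.0679 FPKM in wild type. Its wild-type libraries were widely spread and overlapped the mutant (log2 change 0.57, SE 0.29, limma adjusted p = 0.398). slc2a10 stood at 3.38, 2.80 and 2.50 FPKM in the mutant and 2.98, 2.97 and 1.62 FPKM in wild type (log2 change 0.16, limma adjusted p = 0.738). The intracellular transporter gene slc2a8 stood at 2.37, 2.91 and 2.60 FPKM in the mutant and 2.12, 2.56 and 1.98 FPKM in wild type, again overlapping (log2 change 0.18, limma adjusted p = 0.594). slc2a5, the fructose transporter gene, was listed in mutant replicate 3 alone, at 0.632 FPKM. slc2a6 was listed only in wild-type replicates 2 and 3, at 1.08 and 0.724 FPKM.

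The authors' deposited table tests transcripts. It is named as a comparison of TU and csf1ra, but its value columns name no genotype, so no direction was taken from it. In it 5 of 8 members with a tested transcript had an adjusted p under 0.05 for at least 1, beside 30.1% of 18800 genes. These were slc2a11b, slc2a15a, slc2a15b, slc2a1a and slc2a2, each with an adjusted p of 0.000466 in the authors' deposited table. For slc2a11b 2 of 3 tested transcripts reached it, and the third had 0.212. The authors' unadjusted p behind each value of 0.000466 is the same, 5e-05, so these values do not rank the genes. For slc2a2 the other tested transcript had an adjusted p of 0.101 in the authors' deposited table. slc2a3a, which limma called, did not pass there for either transcript (0.432 and 0.791). Nor did slc2a1b (0.356) or slc2a12 (0.786 and 0.852). In the authors' deposited table slc2a13b had an adjusted p of 0.000466, for 1 transcript.

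Sugars that enter a cell are phosphorylated, released again or turned into polyols. Of 18 tested genes of this list, 1 rose and 1 fell in the mutant (median log2 change 0.17), where 2.42% of all tested genes were called in either direction. akr1b1, the aldose reductase that reduces glucose to sorbitol, fell to 13.9, 13.3 and 15.7 FPKM in the mutant libraries, against 33.0, 34.6 and 35.0 FPKM in wild type (log2 change -1.20, SE 0.08, limma adjusted p = 0.000452). sord, the sorbitol dehydrogenase that turns sorbitol into fructose, stood at 19.0, 18.4 and 18.4 FPKM in the mutant libraries, against 11.8, 8.48 and 11.02 FPKM in wild type (log2 change 0.79, SE 0.12, limma adjusted p = 0.0200). Each gene's genotypes were apart. Without mutant replicate 1, mutant replicate 2 or wild-type replicate 3, 1 of this list was called, against 2 with all libraries. galk2 (1.04 ± 0.35 FPKM in the mutant, 2.05 ± 0.51 FPKM in wild type; SD, n = 3 each) did not pass (limma adjusted p = 0.220).

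Of 13 tested genes of other sugar and monocarboxylate transporters, 0 were called by limma (median log2 change 0.16), beside 2.42% of all tested genes. With so few genes, a count of 0 is near that share. The smallest p belonged to slc37a4b, a glucose 6-phosphate transporter gene whose symbol carries 2 gene IDs that moved in opposite directions. ENSDARG00000093531 was listed in mutant replicate 1 alone, at 2.97 FPKM, and in wild type at 4.50, 4.70 and 4.46 FPKM. ENSDARG00000077180 stood at 32.8, 26.1 and 26.7 FPKM in the mutant, against 24.2, 17.8 and 23.6 FPKM in wild type. Neither ID passed (limma adjusted p = 0.147 and 0.243). Whether reads were split between the 2 IDs was not tested. slc5a1, a sodium-coupled glucose transporter gene, stood at 2.70, 3.56 and 1.29 FPKM in the mutant and 1.05, 1.21 and 1.29 FPKM in wild type (limma adjusted p = 0.285). These 3 gene IDs were the ones of this list with an unadjusted limma p under 0.05. The share of all genes at that unadjusted threshold was not taken. Without mutant replicate 1 or mutant replicate 3, 1 of the list was called. The count was also 1 on first-exon events alone and on last-exon events alone.

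Of 21 tested genes that act on the supply of transporters, through insulin, glucagon, hypoxia and glucose sensing, 1 fell and 0 rose (median log2 change 0.13), beside 1.20% of all tested genes called lower. The one called was mlxip, a glucose-sensing transcription factor gene, at 1.16, 0.999 and 1.60 FPKM in the mutant libraries, against 3.04, 2.60 and 3.6 FPKM in wild type. The genotypes were apart (log2 change -0.86, SE 0.17, limma adjusted p = 0.0462). Leaving out mutant replicate 1 or 2, or any 1 wild-type replicate, left 0 genes of this list called, and leaving out mutant replicate 3 left 2. The count was also 0 with quantile normalization, with no filter or a 5 FPKM filter, with a pseudocount of 0.1, with the replicate block, on first-exon events alone and among genes listed in all 6 libraries. It was 2 with median-ratio rescaling and on last-exon events alone. In mammals the counterparts of mlxip switch on TXNIP, whose product promotes the removal of glucose transporters from the cell surface. txnipa stood at 87.4 ± 14.2 FPKM in the mutant and 95.8 ± 9.6 FPKM in wild type (SD, n = 3 each; limma adjusted p = 0.648). Its duplicate txnipb had the higher mean in the mutant, at 12.8 ± 2.7 against 10.1 ± 1.5 FPKM (SD, n = 3 each). The genotypes overlapped for txnipb, and it did not pass (limma adjusted p = 0.437). The glucagon gene gcgb stood at 7.13, 5.43 and 4.14 FPKM in the mutant, against 2.31, 2.69 and 2.58 FPKM in wild type, with the genotypes apart and a limma adjusted p of 0.0519. tbc1d1, which controls transporter traffic in mammals, did not pass (log2 change 0.35, limma adjusted p = 0.131).

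Cell type markers moved with some of these results, and their part in them was not tested. The summed level of 11 xanthophore and pigment synthesis markers was 97.1 to 109.2 FPKM in the mutant and 218 to 241 FPKM in wild type. Of these 3 fell (gch2, aox5 and paics), 0 rose and 8 did not pass, where 1.20% of all tested genes were called lower. For pts and plin6 there is no total. gch2, a pteridine synthesis gene, had the widest gap, at 13.2 ± 2.9 FPKM in the mutant and 105 ± 5.6 FPKM in wild type (SD, n = 3 each). Without gch2 the list summed to 85.3 to 97.9 FPKM in the mutant and 118 to 130 FPKM in wild type. aox5 stood at 0.688 ± 0.14 FPKM in the mutant and 8.78 ± 0.72 FPKM in wild type, and paics at 38.2 ± 1.9 FPKM in the mutant and 56.8 ± 4.0 FPKM in wild type (SD, n = 3 each). For spra, pax7a and scarb1 the log2 change was positive (0.21, 0.04 and 0.17) and did not pass, with the genotypes apart for spra alone. Macrophage markers summed to 13.9 to 16.8 FPKM in the mutant and 29.4 to 34.3 FPKM in wild type. Of 7 tested, 2 fell (ccl34b.1 and spi1a) and 5 did not pass, beside the same 1.20% of all tested genes called lower. Without ccl34b.1 the list summed to 12.2 to 15.0 FPKM in the mutant and 18.8 to 24.2 FPKM in wild type. spi1b and mfap4 overlapped between the genotypes. marco, too low to be tested, stood at 1.21 ± 0.55 FPKM in the mutant and 0.531 ± 0.13 FPKM in wild type (SD, n = 3 each), with the genotypes apart. c1qa and c1qb were at or near 0 in both genotypes, and mpeg1.1 and c1qc have no total. The macrophage count was 3 without mutant replicate 1 and 1 without any other library.

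For the tissues in which the other members are known to act, the marker sums overlapped between genotypes except in endothelium and fast muscle. Markers of endothelium, where SLC2A1 acts at the blood-brain barrier, summed to 63.8 to 74.6 FPKM in the mutant and 86.0 to 96.8 FPKM in wild type. Of these 7 genes 0 were called, beside 2.42% of all tested genes. Of the 3 at an unadjusted limma p under 0.05, tek and fli1a had negative log2 changes (-0.68 and -0.48) and cdh5 a positive one (0.39). Without tek the sums were 36.0 to 40.1 FPKM in the mutant and 41.0 to 49.5 FPKM in wild type, and kdrl and tie1 overlapped between the genotypes. Fast muscle markers summed to 9887 to 10848 FPKM in the mutant and 11478 to 12227 FPKM in wild type. Without tnnt3b the sums were 9806 to 10796 FPKM in the mutant and 10801 to 11815 FPKM in wild type, which are only just apart. Of the 7 genes, 3 were called lower (acta1b, tnnt3b and atp2a1), beside 1.20% of all tested genes. ckmb alone had a positive log2 change (0.07, not called). This muscle count was 1 without mutant replicate 1 or 2 or without wild-type replicate 2 or 3. Neuron markers summed to 616 to 737 FPKM in the mutant and 604 to 639 FPKM in wild type. Photoreceptor markers summed to 496 to 1007 FPKM in the mutant and 515 to 722 FPKM in wild type. Of 7 tested, 6 had a positive log2 change (median 0.49). Liver markers summed to 4126 to 5149 FPKM in the mutant and 3488 to 4701 FPKM in wild type. Melanophore markers (74.6 to 88.8 FPKM in the mutant, 76.0 to 98.8 FPKM in wild type) and iridophore markers (47.3 to 63.4 FPKM in the mutant, 54.6 to 57.6 FPKM in wild type) also overlapped. So did erythrocyte markers (714 to 820 FPKM in the mutant, 752 to 859 FPKM in wild type). In these 6 lists limma called 0 genes, beside 2.42% of all tested genes, and 3 were at an unadjusted limma p under 0.05. No share of all genes was taken at that unadjusted threshold, for endothelium or for these lists. Without mutant replicate 3, 2 liver and 2 photoreceptor genes were called.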

How the data were processed

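RNA of whole zebrafish embryos was measured in 3 csf1ra-/- and 3 wild-type libraries, grouped by the genotype label. The submitters' processing notes name Trimmomatic 0.30, HISAT2 2.0.1, HTSeq 0.6.1, SAMtools 0.1.18, Cufflinks 2.2.1 and DESeq with the GRCz10 build, without roles. Per the file headers, the deposited tables per library give the authors' FPKM for 20 types of transcript-structure event. The series table gives the authors' p-value and adjusted p-value per transcript; 2 value columns of it were not used because their names do not give the genotype. The sources used here give neither read totals nor strand settings, so no depth or counting interval can be stated.

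From these, gene totals were formed as the larger of summed first-exon and last-exon FPKM, with an unlisted gene set to 0. Genes reaching 1 FPKM in 3 or more libraries were tested with limma 3.58.1 (R 4.3.3) on log2(FPKM + 1), with trend and robust options, genotype as the only term and a two-sided Benjamini-Hochberg threshold of 0.05. Tested on simulated data for this comparison over 15475 genes, the script recovered 76.5% of the 98 genes given a 2-fold change. Of the 102 genes given a 4-fold change, 98.0% were recovered. The changed genes were drawn only from genes whose mean log2(FPKM + 1) matched at least 5 FPKM, and the changes were set on that scale. The rates therefore do not cover genes under that mean, such as slc2a15b, slc2a1a, slc2a12, slc2a8, slc2a10 and slc2a13b. The script also made 23 false calls, 11.6% of its calls, above the 5% that the threshold aims at. Exact permutation tests were used for pairs and for the shares of the slc2a11b starts.

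The members and lists were chosen with earlier results of these data known. Named were all members, csf1ra, the other tested SLC2 genes, called genes and the 3 of smallest p in each sugar list, called marker genes, and the 5 nearest genes of each called member. txnipa, txnipb, the marker genes not called, the list sums without 1 gene and the listed but untested SLC2 genes were chosen after their values were seen. Coordinates are the authors' (GRCz10). The alternatives covered scaling, filter, pseudocount, model options, the replicate number as a block, the event type and each library left out. Leaving out a library kept the filter of all 6 libraries. No sequences were used here.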

Additional observations from a re-analysis of the deposited data

How the results depend on the processing

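Of 142 results for single members under 18 alternatives, 127 kept their direction and side of the threshold, 13 lost the call and 2 turned round. slc2a11b and slc2a15a stayed lower and past the threshold under every alternative run. The number of members called higher was 0, against 1, with no trend and robust options, with the replicate block, with first-exon events alone and without each single library (0 to 0). On first-exon events alone slc2a3a turned to -0.65, and without mutant replicate 1 slc2a12 turned to -0.010 (-0.0102 to 0.252 without single libraries). Over all genes 115 were called with the replicate block, 232 among genes listed in all 6 libraries and 133 to 450 without single libraries, against 374. Of the 3 sugar lists together, 1 gene was called with the replicate block, 5 with last-exon events alone and 1 to 6 without single libraries, against 3. The difference in summed FPKM was -21.3 with first-exon events alone, against -16.5. The cause of these shifts was not tested. The leave-one-out fits have fewer libraries, and the highest count, 450, came without mutant replicate 3. The replicate numbers did not pair the libraries (correlations of same-numbered deviations -0.027, 0.003 and 0.006). With the block, slc2a15b and slc2a3a had limma adjusted p of 0.0779 and 0.105. No scaling moved the median of all genes by more than 0.0143. slc2a2 has no value with last-exon events alone, nor slc2a12 under a 5 FPKM filter. With unknown depth, values under 1 FPKM, such as those of slc2a3b, carry no stated error.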

Other observations

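Among minor events of the family, slc2a12 has an upstream first-exon event at GRCz10 chromosome 23, 31707012 to 31707085, listed in 5 of 6 libraries. It held 0.0973 and 0.0380 FPKM in mutant replicates 2 and 3, and 0.0200, 0.0517 and 0.0509 FPKM in the wild-type libraries. For slc2a13b a retained-intron event, at 0.597 FPKM, was listed in mutant replicate 3 alone. The genes slc2a11a, slc2a11l and slc2a9l1 are named in the authors' deposited table without a tested transcript and have no total in any library.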
